A study of Mus musculus with 6 samples.

Results

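Cytosolic ribosomal protein genes encode the proteins that assemble with ribosomal RNA into the small and the large subunit of the ribosome. They were taken by symbol as every gene named Rpl or Rps with a number, together with Rplp0, Rplp1, Rplp2 and Rpsa, and without the S6 kinase genes and 8 symbols that end in -ps. This gave 87 of the 32227 genes counted. Of these, 77 encode core subunit proteins, 31 of the small and 46 of the large subunit. The other 10 are paralogs or genes named after a member: Rpl3l, Rpl7l1, Rpl10l, Rpl22l1, Rpl36al, Rpl39l, Rps19bp1, Rps23rg1, Rps27l and Rps27rt.

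The data are PIPseq single-cell RNA counts from bead-isolated CD8+ T cells of C57BL/6 mice older than 8 weeks. Pdcd1fl/fl mice without Cre (flfl) were compared with Pdcd1 cKO mice (cKO), in which the floxed Pdcd1 gene, encoding the inhibitory receptor PD-1, was combined with the E8I CD8-Cre transgene. This Cre is driven by Cd8a sequences and acts once T cells have been selected into the CD8 lineage, so that both groups carry the floxed alleles and earlier thymocytes are not its target. Each genotype gave 1 thymus library and 1 spleen library at baseline, each from 1 mouse, and the sources used here do not say whether the 2 organs came from the same animal. It also gave 1 tumor library of cells pooled from 3 mice, taken 12 days after injection of B16-OVA, a B16 melanoma line that expresses ovalbumin.

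Ribosomal proteins are made in matched amounts, and copies that do not enter a ribosome are degraded. Their mRNAs usually start within a run of pyrimidines through which mTOR signaling sets their translation, and T cells raise ribosome production on activation, when PD-1 signaling works against that pathway. A few members have paralogs that take their place in testis, muscle or stressed cells, and loss of Rpl22 alone stops the development of αβ T cells at an early stage.

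Pdcd1 was examined first in every library, with values given for flfl and then for cKO throughout. Its UMI count was 12 and 131 in thymus, 1 and 104 in spleen and 702 and 801 in tumor. As CPM (UMIs scaled to 1000000 per library), with 95% intervals that cover counting error only, these were 1.88 (0.970 to 3.28) and 6.84 (5.72 to 8.12), 0.450 (0.0114 to 2.51) and 11.7 (9.52 to 14.1), and 183.1 (169.8 to 197) and 152 (142 to 163). In thymus and spleen the library labelled cKO thus had more Pdcd1 RNA, which goes against its label, and in tumor it had slightly less. Pdcd1 was among the 10 leading genes of effector-like thymic cluster 7, which held 1 and 194 cells, and the part of cell make-up in the thymic and splenic counts was not tested. The floxed exons are not given in the sources used here and the UMIs lie at the 3′ end, where RNA from a deleted allele can still be counted, so this is a limited check, and the groups are called by their labels. Between the 2 spleen libraries 2 cell barcodes were shared, of which 0 passed the cell filter, and no other pair of libraries shared any.

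Cells were kept from 500 genes and 1000 UMIs upward, up to a limit of 20% mitochondrial UMIs. Clusters named as another lineage were left out. So were unnamed clusters with at least 3 markers of another lineage, where these outnumbered the markers of every T cell state. T cell markers were not required, and 0 filtered cells of thymus and spleen were left out by this rule. Kept cells numbered 1067 and 2635 in thymus, 1478 and 4928 in spleen and 287 and 469 in tumor, after 169 and 92 tumor cells of other lineages had been left out. The cell filter was uneven in spleen, where it kept 1478 of 6929 barcodes in flfl and 4928 of 4963 in cKO. Before it, the median spleen barcode had 728 and 1611 UMIs. The spleen ratios thus set the deeper barcodes of flfl against nearly all of cKO. In thymus and tumor nearly all barcodes passed. Median UMIs per cell were 4361 and 5417 in thymus, 1320.5 and 1615 in spleen and 11027 and 9107 in tumor, and mitochondrial UMIs made up 3.92 and 4.92 percent in thymus, 3.78 and 4.36 in spleen and 1.96 and 1.75 in tumor. Spleen cells were therefore the shallowest and tumor cells the deepest, and in each of thymus and spleen the cKO library was deeper and had more mitochondrial UMIs. Cd8b1, a chain of the CD8 coreceptor, had 186 and 291 CPM in thymus, 538 and 860.0 in spleen and 429 and 582 in tumor and Trac, the constant region of the T cell receptor α chain, 127 and 241 in thymus, 382 and 570.3 in spleen and 321 and 484 in tumor, both higher in cKO in each tissue. Cd3e had 283 and 281 CPM in thymus, 224 and 347 in spleen and 301 and 385 in tumor, near even in thymus and higher in cKO elsewhere. No doublet caller was run.

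Markers of other lineages were summed over the same cells. The 6 B cell markers came to 152 and 105 CPM in thymus, 189 and 2053 in spleen and 69.9 and 215 in tumor. In the spleen library labelled cKO all 6 were found, led by Igkc at 1517 CPM, whereas in the flfl spleen 4 of 6 were found, led by Ighm, and Ms4a1 stood at 0. The 5 granulocyte progenitor markers summed to 2.25 and 77.4 CPM in spleen, with 2 and 5 of 5 found, led by Prtn3 and Mpo, and to under 1 CPM in the other libraries. In tumor the 7 melanoma markers, all found, summed to 255 (led by Dct) and 171 CPM (led by Pmel), and the 7 dendritic markers, 5 found with Ccl22 and Xcr1 at 0, to 114 and 207, led by Cd74. The 6 connective tissue markers, all found and led by Dcn, summed to 74.8 and 24.2 CPM in thymus. Plasma cell markers reached 143 CPM in the cKO spleen against 38.3 in flfl, and the 4 erythroid markers 26.8 against 1.35. Thus the cKO spleen held the most RNA of B cell, plasma cell, granulocyte progenitor and erythroid markers. Dendritic and macrophage markers were highest in the cKO tumor, at 207 and 66.9 CPM, against 70.4 and 28.4 in the cKO spleen. The part of these cells, of depth and of mitochondrial RNA in the values of the ribosomal protein genes was not tested.

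Ribosomal protein UMIs were more than 26% of all UMIs in each library. Their share was 26.4 (26.3 to 26.4) and 33.6 (33.6 to 33.6) percent in thymus, 35.9 (35.8 to 35.9) and 29.1 (29.0 to 29.1) in spleen and 41.2 (41.1 to 41.2) and 36.2 (36.1 to 36.2) in tumor. The median cell had 26.4 and 35.0 percent in thymus, 37.1 and 31.1 in spleen and 41.6 and 36.7 in tumor. The cKO library was the higher in thymus and the lower in spleen and tumor, with differences of 7.23, -6.80 and -5.03 points. The size in spleen and the direction in tumor depended on the cells kept: with the stricter cell filter the spleen shares were 30.3 and 26.9 percent, and with all filtered cells the tumor shares were 29.8 and 30.7, higher in cKO. With 1 library per group, these differences and all that follow have no replicate check, and a difference of genotype cannot be told apart from one of mouse, cell recovery or library. Of the 87 members, 86 and 86 in thymus, 86 and 85 in spleen and 86 and 84 in tumor had at least 1 UMI.

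In thymus most members were higher in the library labelled cKO. Over the 86 members with at least 20 UMIs, the median log2 ratio of cKO to flfl was 0.39 (quartiles -0.02 and 0.67), with 61 above and 25 below 0, against a median of -0.02 over all 14381 genes. Past 1.5-fold, 25 members were higher, where 17.2% of all genes were, and 3 were lower, where 16.4% were. Small subunit genes had a median of 0.55, with 15 higher and 1 lower, and large subunit genes one of 0.36, with 9 and 1. Scaled to UMIs other than ribosomal protein, mitochondrial and Malat1 RNA, 41 were higher and 2 lower, where 24.2 and 10.2% of all genes were. The spread among members was wide, from -1.07 for Rpl35 to 1.57 for Rps21 among those with at least 100 UMIs; Rpl39l at 2.74 rested on 1 and 20 UMIs.

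Spleen and tumor showed the other direction, with a smaller spread. In spleen 84 members had a median of -0.33, 10 above and 74 below 0, against 0.17 over 12272 genes. Rpl7l1 and Rps23rg1 were higher past 1.5-fold (2 members, 22.0% of all genes), and Rpl36, Rpl35a, Rps23 and Rpl30 were lower (4 members, 7.82% of all genes). With the stricter cell filter the spleen median was -0.21, with 0 members higher (23.8% of all genes) and 1 lower past 1.5-fold (Rpl36; 14.1%). The small and large subunits had medians of -0.36 and -0.33. In tumor 83 members had a median of -0.19, 4 above and 79 below 0, against 0.09 over 10719 genes, and 0 were called higher (19.0% of all genes) and 0 lower (10.8%). Small and large subunit medians were -0.21 and -0.22.

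The scale moved the counts past 1.5-fold and single members near 0, while the sign of the member median held in each tissue. The all-gene median was -0.02, 0.16 and 0.05 in thymus when counts were scaled to all UMIs, to UMIs other than ribosomal protein, mitochondrial and Malat1 RNA, and by median of ratios, 0.17, 0.03 and -0.01 in spleen, and 0.09, -0.03 and 0.01 in tumor. The member median followed at 0.39, 0.57 and 0.46, then -0.33, -0.47 and -0.50, then -0.19, -0.31 and -0.27. A scale adds the same amount to the log2 ratio of every gene, so the distance of the member median from the all-gene median, 0.41, -0.50 and -0.28 in the 3 tissues, is the same on each by construction. The number lower past 1.5-fold in spleen grew from 4 to 17 and 22 on the latter 2 scales, with 1 higher, while the share of all genes that were lower went from 7.82 to 11.2 and 12.6%. In tumor the number went from 0 to 3 and 1, beside 13.7 and 12.97% of all genes, and in thymus the number higher by median of ratios was 31, beside 19.6%. The tumor median turned to 0.03 when the cells of other lineages were kept, with or without the cell filter. Directions of single genes turned as well: on the second scale Rpl4, Rpl22l1 and Rpl36al became positive in thymus, and on both other scales Rpl18 became positive in thymus, Rpl3, Rpl4, Rpl6 and Rpsa negative in spleen, and Rpl35, Rpl41 and Rps18 negative in tumor.

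**Figure D1:**
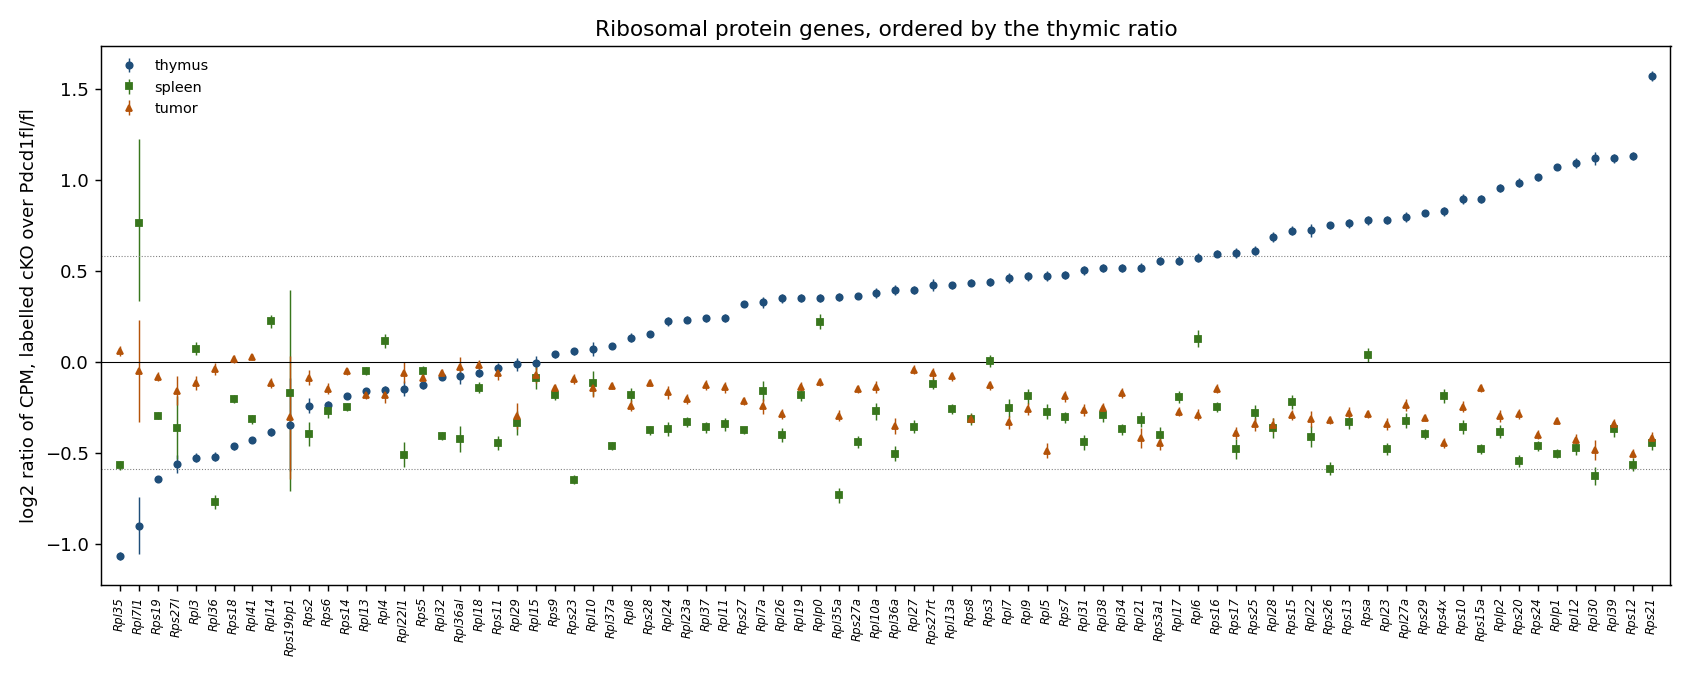
Log2 ratio of CPM, library labelled cKO over flfl, for ribosomal protein genes with at least 100 UMIs in every tissue, ordered by thymus; bars are 95% counting intervals and dotted lines 1.5-fold. Thymus runs from -1.07 (Rpl35) to 1.57 (Rps21), while most spleen and tumor points lie below 0.

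Among small subunit proteins, Rps21, which sits beside Rpsa on the solvent side, differed most in thymus, as did Rps23 in spleen and Rps12 in tumor. Rps21 had 1713 and 5098 CPM in thymus, 2833 and 2085 in spleen and 4283 and 3213 in tumor. Its log2 ratios were 1.57 (1.54 to 1.60) in thymus, -0.44 (-0.48 to -0.40) in spleen and -0.41 (-0.45 to -0.38) in tumor, so it was high in the cKO thymus and low in the cKO spleen and tumor. Rps12, in the beak of the subunit, had 3051 and 6697 CPM in thymus, 4430.5 and 3001 in spleen and 7114 and 5023 in tumor, log2 ratios of 1.13, -0.56 and -0.50, and was the lowest member in tumor. Rps24, in the foot, had 3589.5 and 7264 CPM in thymus, 6392 and 4639.6 in spleen and 6711 and 5087 in tumor (1.02, -0.46 and -0.40). Rps26, near the exit of the mRNA channel, had 3982 and 6713 CPM in thymus, 3582 and 2389 in spleen and 8987 and 7219 in tumor (0.75, -0.58 and -0.32), and its neighbor Rps3a1 had 2926 and 4299 CPM in thymus, 2892 and 2195 in spleen and 2883 and 2119 in tumor (0.55, -0.40 and -0.44). Each of these was higher in the cKO thymus and lower in the other 2 cKO libraries. Rps4x, an X-linked body protein, had 2561 and 4550.1 CPM in thymus, 2919 and 2566 in spleen and 5293 and 3896 in tumor (0.83, -0.19 and -0.44), the same pattern. Across members with at least 1000 UMIs, the widest interval of the ratio spanned 0.31 log2 units in thymus (Rpl7l1), 0.35 in spleen and 0.16 in tumor (both Rps27l).

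Other small subunit genes went against the thymic majority. Rps19, a head protein mutated in Diamond-Blackfan anemia, had 6693 and 4294 CPM in thymus, 12142 and 9906 in spleen and 5984 and 5663 in tumor. The ratios were -0.64 (-0.66 to -0.62) in thymus, -0.29 (-0.31 to -0.27) in spleen and -0.08 (-0.10 to -0.05) in tumor, lower in each cKO library and past 1.5-fold in thymus only. Rps18, also of the head, had 6405 and 4647 CPM in thymus, 10286 and 8934 in spleen and 6997 and 7083 in tumor (-0.46, -0.20 and 0.02). Rps6, which S6 kinases phosphorylate, had 2786 and 2364 CPM in thymus, 3279.6 and 2724 in spleen and 3777 and 3417 in tumor (-0.24, -0.27 and -0.14) and was modestly lower in all 3 cKO libraries. Rps23, of the decoding center, had 4575 and 4771 CPM in thymus, 7650.2 and 4892 in spleen and 5174 and 4853 in tumor (0.06, -0.65 and -0.09), near even in thymus and tumor and low in the cKO spleen. Rpsa, known as the laminin receptor, had 2511 and 4314 CPM in thymus, 2969 and 3050.4 in spleen and 7061 and 5797 in tumor (0.78, 0.04 and -0.28), while Rps15a, of the central body, had 3190.5 and 5949 CPM in thymus, 6023 and 4324 in spleen and 8193 and 7427 in tumor (0.90, -0.48 and -0.14). Both were higher in the cKO thymus. Rps27, a zinc-finger protein of the platform, had 5494 and 6850.0 CPM in thymus, 15016 and 11581 in spleen and 7373 and 6357 in tumor (0.32, -0.37 and -0.21).

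In the large subunit the 2 small proteins lining the peptide exit tunnel, Rpl35 and Rpl39, differed in opposite directions in thymus. Rpl35 had 4790.3 and 2288 CPM in thymus, 8175 and 5522 in spleen and 4096 and 4275 in tumor. With log2 ratios of -1.07 (-1.09 to -1.05) in thymus, -0.57 (-0.59 to -0.54) in spleen and 0.06 (0.03 to 0.09) in tumor, it was the lowest member of the thymus and the highest of the tumor. Rpl39 had 2143 and 4662 CPM in thymus, 2697 and 2089.8 in spleen and 5335 and 4225 in tumor and ratios of 1.12 (1.09 to 1.15) in thymus, -0.37 (-0.41 to -0.33) in spleen and -0.34 (-0.36 to -0.31) in tumor, high in the cKO thymus and low in the cKO spleen and tumor. Rpl4, which also reaches into the tunnel, had 3075 and 2767 CPM in thymus, 3186 and 3453 in spleen and 2498 and 2201 in tumor (-0.15, 0.12 and -0.18). Rpl3, next to the peptidyl transferase center, had 3324 and 2312 CPM in thymus, 3443 and 3622 in spleen and 2658 and 2457 in tumor (-0.52, 0.07 and -0.11). Rpl4 and Rpl3 were both lower in the cKO thymus and slightly higher in the cKO spleen.

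The stalk that recruits translation GTPases is built of Rplp0, Rplp1 and Rplp2 on a base with Rpl12. Rplp0 had 2874 and 3673 CPM in thymus, 2751 and 3212 in spleen and 7406 and 6866 in tumor (0.35, 0.22 and -0.11). Rplp1 had 4510.4 and 9494 CPM in thymus, 8048 and 5682 in spleen and 10505 and 8408 in tumor (1.07, -0.50 and -0.32) and Rplp2 2960.4 and 5753 CPM in thymus, 3921 and 3011 in spleen and 3690.5 and 3006 in tumor (0.96, -0.38 and -0.30). The acidic proteins Rplp1 and Rplp2 were thus both past 1.5-fold higher in the cKO thymus, whereas Rplp0 was within 1.5-fold in every tissue and, unlike them, higher in the cKO spleen. Rpl12 had 2025 and 4324 CPM in thymus, 3843 and 2767 in spleen and 3638 and 2705 in tumor (1.09, -0.47 and -0.43) and followed Rplp1 in all 3 tissues.

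Rpl30, which binds its own transcript and lies at the subunit interface, had 1305 and 2836 CPM in thymus, 2102 and 1363 in spleen and 1422 and 1019 in tumor. Its ratios of 1.12 (1.09 to 1.15) in thymus, -0.63 (-0.67 to -0.58) in spleen and -0.48 (-0.54 to -0.43) in tumor passed 1.5-fold upward in thymus and downward in spleen, where the stricter cell filter brought it to -0.40, within 1.5-fold. Rpl35a, mutated in some Diamond-Blackfan patients, had 2849 and 3651 CPM in thymus, 3385 and 2038 in spleen and 4147 and 3383 in tumor (0.36, -0.73 and -0.29), and Rpl36 had 2833 and 1978 CPM in thymus, 3692 and 2169 in spleen and 3405 and 3319 in tumor (-0.52, -0.77 and -0.04). These 2 were the lowest members in the cKO spleen. The neighbors Rpl6 and Rpl14 had 2257 and 3362 CPM in thymus, 2027 and 2218 in spleen and 4217 and 3454 in tumor (0.58, 0.13 and -0.29) and 3316 and 2544 CPM in thymus, 3365 and 3934 in spleen and 4336 and 4007 in tumor (-0.38, 0.23 and -0.11), higher in the cKO spleen. Rpl5, which carries 5S RNA and binds Mdm2, had 1983 and 2752 CPM in thymus, 2789 and 2310.4 in spleen and 2461 and 1758 in tumor (0.47, -0.27 and -0.49), low in the cKO tumor. Rpl41, the smallest member and a bridge between subunits, had 7596 and 5646 CPM in thymus, 8219 and 6609 in spleen and 13991 and 14281 in tumor (-0.43, -0.31 and 0.03). For Rpl18 the values were 3578 and 3428 CPM in thymus, 4656 and 4229 in spleen and 5070.2 and 5021 in tumor (-0.06, -0.14 and -0.01), with little difference in any tissue. Rpl37a, with a zinc ribbon, had 5721 and 6085 CPM in thymus, 11180.2 and 8134 in spleen and 11216 and 10265 in tumor (0.09, -0.46 and -0.13), and Rpl7a 1918 and 2409 CPM in thymus, 1609 and 1440.3 in spleen and 2216 and 1874 in tumor (0.33, -0.16 and -0.24).

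Paralogs were compared with their partners as UMIs per 1000 partner UMIs. Rpl22l1 and Rpl22, RNA-binding proteins of which Rpl22 is needed in early αβ T cell development, gave 738 and 404 in thymus, 742 and 692 in spleen and 549.6 and 655 in tumor. Rpl22l1 itself had 974 and 881 CPM in thymus, 1036 and 728 in spleen and 1175 and 1129 in tumor (-0.15, -0.51 and -0.06) and Rpl22 1320.3 and 2181 CPM in thymus, 1397 and 1052 in spleen and 2137 and 1722 in tumor (0.72, -0.41 and -0.31). In thymus the ratio was 738 (714 to 763) in flfl and 404 (397 to 411) in cKO. Thus the cKO thymus had relatively less of the paralog, with Rpl22 higher and Rpl22l1 little different. The tumor ratio was higher in cKO, and the spleen ratios were close with the main cell filter. With the stricter filter the spleen ratio was 885 in flfl, while in cKO it lay between 684.5 and 696 under each alternative. Rps27l, a p53 target, per 1000 Rps27 gave 136 and 74.3 in thymus, 10.9 and 10.98 in spleen and 79.6 and 82.8 in tumor. Its own level was 749 and 509 CPM in thymus, 163 and 127 in spleen and 587 and 526 in tumor (-0.56, -0.36 and -0.16). The ratio was low in both spleen libraries. Its level elsewhere depended on the cells kept: without the cycling-like clusters it was 43.2 and 33.3 in thymus, with cells thinned to 1000 UMIs 43.3 and 80.1 in tumor, and with all filtered cells 153 and 119 in tumor.

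Rpl7l1, a nucleolar factor of large subunit assembly, gave, per 1000 Rpl7, 41.1 and 16.0 in thymus, 11.7 and 23.7 in spleen and 16.2 and 19.7 in tumor. Its level was 85.4 and 45.8 CPM in thymus, 22.5 and 38.3 in spleen and 49.6 and 47.9 in tumor, with log2 ratios of -0.90 (-1.06 to -0.74) in thymus, 0.77 (0.34 to 1.23) in spleen and -0.05 (-0.33 to 0.23) in tumor. It was low in the cKO thymus and high in the cKO spleen, against the direction of most members in both. With the stricter cell filter its spleen ratio was 0.27, within 1.5-fold, and per 1000 Rpl7 it stood at 18.4 and 29.0 in spleen. Rpl7 had 2078 and 2860.0 CPM in thymus, 1923 and 1614 in spleen and 3056 and 2432 in tumor (0.46, -0.25 and -0.33). Rpl36al, an intronless copy, gave, per 1000 Rpl36a, 491 and 353 in thymus, 334 and 353 in spleen and 575 and 719.8 in tumor. The copy had 974 and 923 CPM in thymus, 938 and 699.9 in spleen and 1180.2 and 1159.7 in tumor (-0.08, -0.42 and -0.03), and Rpl36a had 1985 and 2614 CPM in thymus, 2812 and 1985 in spleen and 2054 and 1611 in tumor (0.40, -0.50 and -0.35). The ratio was lower in the cKO thymus. In tumor it was higher in cKO among T cells, but with all filtered cells it was 968 and 884, the other way round. Rps27rt, a retrotransposed copy of Rps27, gave, per 1000 Rps27, 264 and 284 in thymus, 336 and 402 in spleen and 582 and 647 in tumor, at a level of 1453 and 1948 CPM in thymus, 5051 and 4655 in spleen and 4291 and 4114 in tumor (0.42, -0.12 and -0.06). Its sequence is so close to Rps27 that how 3′ tags were divided between them is uncertain, and the same holds for pseudogene copies, with the -ps symbols at, per 1000 ribosomal protein UMIs, 10.6 and 9.54 in thymus, 11.9 and 14.2 in spleen and 31.1 and 34.4 in tumor.

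The tissue-restricted paralogs were almost absent. Rpl39l, enriched in testis, had UMI counts of 1 and 20 in thymus, 2 and 14 in spleen and 10 and 0 in tumor. Per 1000 Rpl39 this was 0.0730 (0.00185 to 0.407) and 0.224 (0.137 to 0.346) in thymus, 0.334 (0.0404 to 1.21) and 0.751 (0.410 to 1.26) in spleen and 0.489 (0.234 to 0.899) and 0 (0 to 0.166) in tumor. The intervals overlap in thymus and in spleen, and in tumor the gene was seen in flfl only. Rpl3l, a muscle paralog of Rpl3, had UMI counts of 11 and 44 in thymus, 0 and 0 in spleen and 0 and 0 in tumor, or 0.518 (0.258 to 0.927) and 0.994 (0.722 to 1.33) per 1000 Rpl3 in thymus. These few counts gave no stable difference: in cells with Cd8a or Cd8b1 UMIs Rpl3l stood at 0.493 and 0.524, and with cells thinned to 1000 UMIs at 1.42 and 1.45. With all filtered cells it was found in tumor too, at 0.164 and 0.302. Rpl10l, also of testis, had counts of 0 and 0 in thymus, 1 and 0 in spleen and 1 and 0 in tumor, whereas Rpl10 had 1157 and 1217 CPM in thymus, 991 and 915 in spleen and 1724 and 1560.5 in tumor (0.07, -0.12 and -0.14). The retrogene Rps23rg1 had counts of 23 and 68 in thymus, 11 and 67 in spleen and 1 and 8 in tumor and ratios of -0.02 (-0.72 to 0.73) in thymus and 0.60 (-0.33 to 1.67) in spleen; in tumor it missed the minimum of 20 UMIs. Rps19bp1, which binds Rps19, had 28.5 and 22.4 CPM in thymus, 16.7 and 14.8 in spleen and 37.0 and 30.03 in tumor (-0.35, -0.17 and -0.30). For both ratios of Rps23rg1 the interval contained 0.

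Cell states were clusters made within each tissue without the ribosomal protein and mitochondrial genes, and named by markers. In thymus the 3 mature or naive-like clusters held by both libraries differed widely in their share of ribosomal protein UMIs: cluster 0 had 31.8 and 39.7 percent and cluster 10 33.5 and 40.2, but cluster 5 had 15.3 and 14.7. Cluster 5 was also high in mitochondrial UMIs (7.28 and 7.33 percent), as were cycling-like cluster 4 (15.3 and 14.3 percent ribosomal protein, 8.18 and 13.3 mitochondrial) and immature-like cluster 9 (in cKO, where alone it had 20 cells or more, 14.4 percent ribosomal protein and 12.0 mitochondrial). The immature-like share was not stable, at 28.9 percent at resolution 1.5 and 31.3 with clusters made from all genes. In clusters 4, 5 and 9 low shares thus went with high mitochondrial RNA, and cell quality as a source of this was not tested. Cycling-like cluster 12 of flfl did not share this, with 22.8 percent ribosomal protein and 3.87 mitochondrial. Memory-like cluster 8 had 34.7 and 41.4 percent and cycling-like clusters 1, 3 and 12 26.5 and 35.6, 27.4 and 33.2 and 22.8 and 30.7. Cluster 2 had 27.6 and 33.97 percent; it had 7 immature markers, more than the 5 of cluster 9, but stayed unnamed because a plasma cell marker, Mzb1, was among its leading genes and none of the 7 was, so the share of cluster 9 does not stand for immature cells at large. The highest thymic share was 45.6 percent in mature or naive-like cluster 6, which reached 20 cells in cKO only, as did effector-like cluster 7 (33.7) and unnamed cluster 11 (34.2), which was led by the stromal genes Rarres2 and Dcn. A cluster held mostly by 1 library, such as thymic 0 (92 and 632 cells), 1, 3, 4, 6, 7, 9 and 11, spleen 0, 1, 2, 3, 5, 6 and 11 or tumor 0, 1, 3, 5 and 8, may reflect that library. CD8 RNA was uneven in these CD8-selected cells, as clusters 1 and 2 had 94.3 and 45.6 CPM of Cd8b1 and 494 and 842 of Dntt, a gene of immature thymocytes, against 743 and 64.7 in cluster 0.

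Most spleen clusters met no marker rule. With cluster 3 aside, those held by both libraries had 33.8 to 37.4 percent in flfl and 29.6 to 34.3 in cKO, lower in cKO in each. Many of them were uneven: clusters 0, 1 and 5 held 49 and 1341, 59 and 1272 and 21 and 528 cells and cluster 2 971 and 167. Cluster 0 had T cell markers but was led by the immunoglobulin genes Iglc3, Iglc1, Ighg2b, Igkc and Ighm. Cluster 3 had 20.8 and 16.6 percent with 5.60 and 6.35 mitochondrial. With 20 cells or more in cKO alone, effector-like cluster 6 had 23.7 percent and cluster 11, led by the granule genes Prtn3, Mpo and Elane, 22.3. Their mitochondrial UMIs were 3.79 and 4.46 percent, below the 6.35 of cluster 3 in cKO. In tumor, mature or naive-like cluster 4 had 46.5 and 43.6 percent and cluster 8, at 56.0 in flfl, the only library with 20 cells of it, was the highest of all. Unnamed cluster 0 had 39.3 and 36.0 percent, and the effector-like clusters 1, 3 and 5 of cKO 36.3, 37.7 and 33.9. Mature or naive-like tumor T cells were therefore above effector-like ones. The tumor cells left out were lower still, at 21.4 and 19.3 percent in the melanoma-like, 21.6 and 16.8 in the macrophage-like and 22.1 and 23.1 in unnamed cluster 2, which was led by collagen genes but also had all 7 melanoma markers.

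**Figure D2:**
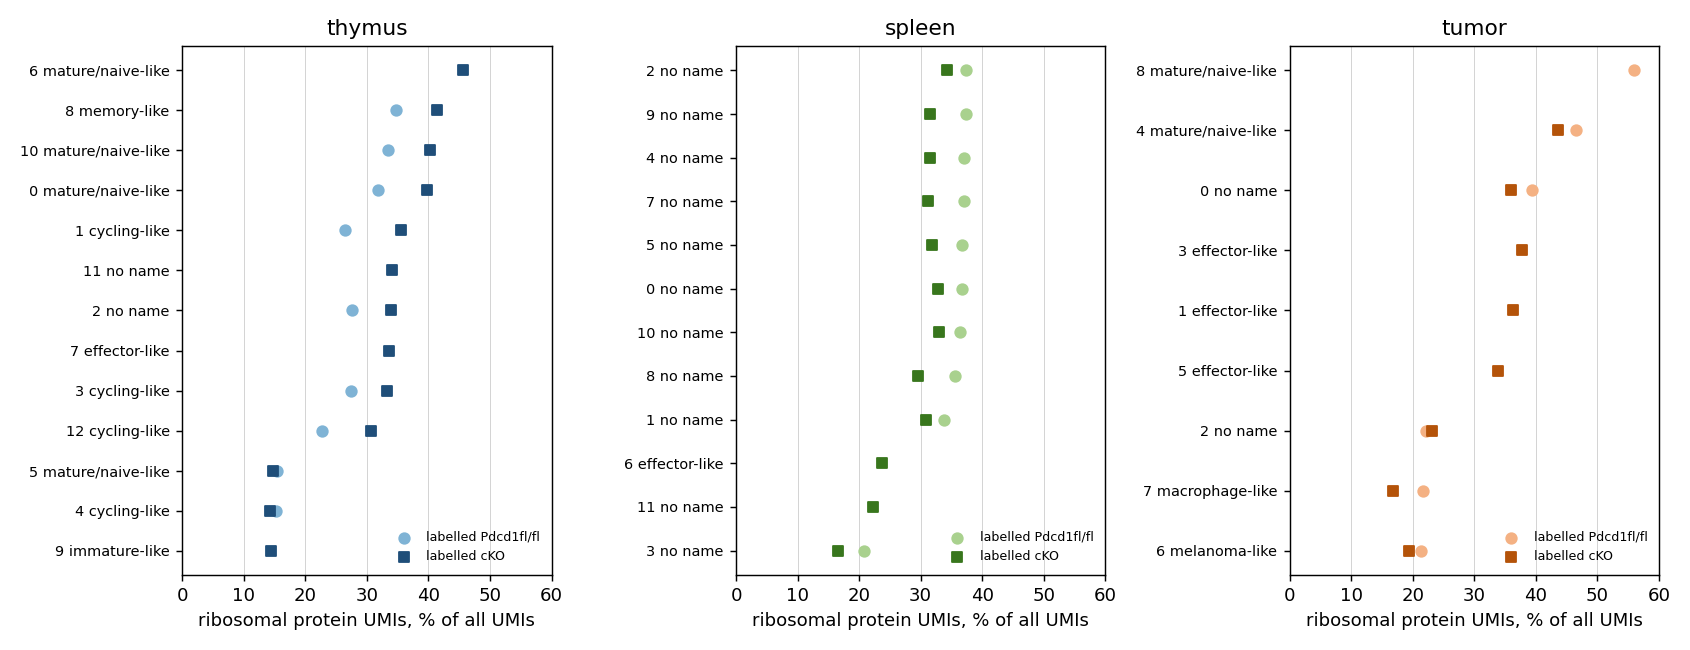
Share of ribosomal protein UMIs in percent of all UMIs for each cluster with at least 20 cells, by tissue and library label. In thymus cKO lies to the right of flfl except in clusters 4 and 5 (15.3 and 14.3, 15.3 and 14.7 percent); in spleen it lies to the left in every shared cluster.

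Within clusters the direction of each tissue largely held. The member median of the log2 ratio was 0.27 to 0.48 in 7 thymic clusters and -0.08 and 0.01 in clusters 4 and 5. It was -0.34 to -0.14 in the 10 spleen clusters, and -0.13 and -0.10 in tumor T cell clusters 0 and 4. Members were then set against the ribosomal protein pool, as UMIs per 1000000 UMIs of all members, which does not depend on scaling to other genes. Of 82 members seen in all 9 shared thymic clusters, 31 had a higher share of the pool in cKO in every cluster and 28 a lower one in every cluster, while 23 were mixed. In spleen, over 10 clusters and 80 members, these were 13, 13 and 54, and in tumor, over 5 clusters (3 of them not T cells) and 83 members, 16, 21 and 46. Clusters of 1 library share its preparation and are not replicates, so a difference between whole libraries can recur in each cluster. The same count was not made over other genes, so these counts do not set the members apart from other genes.

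In thymus the pool share of most members, though not of the 23 mixed ones, differed between the labels in 1 direction in every shared cluster. The log2 ratio of the pool share ranged over clusters from 0.94 to 1.38 for Rps21, from 0.47 to 1.14 for Rps12, from 0.51 to 0.99 for Rpl30, from 0.44 to 0.98 for Rpl39 and from 0.57 to 0.73 for Rplp1. On the lower side it ran from -1.55 to -0.85 for Rpl35, from -1.14 to -0.70 for Rps19, from -0.99 to -0.61 for Rpl36 and from -1.49 to -0.31 for Rpl7l1. Rps27l, also among the 5 lowest members of the thymus, was mixed, from -0.76 to 0.27. Rpl22, at 0.29 to 0.62, and Rpl22l1, at -0.62 to -0.19, stood on opposite sides in every thymic cluster. In spleen Rpl14 (0.17 to 0.99) was higher and Rpl36 (-0.64 to -0.27) lower in all clusters. In tumor Rpl35 (0.20 to 0.49) was higher and Rps12 (-0.60 to -0.20) lower in all. Rpl35 thus had opposite signs in thymus and tumor, as did Rps12.

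Across all T cell states and libraries, the pool share varied most, in UMIs per 1000000, for Rps27, Rpl41 and Rps19. In these units Rps27 ranged from 12935 (thymus cKO cluster 3) to 46167 (spleen flfl cluster 5), Rpl41 from 12682 (thymus cKO cluster 7) to 40292 (tumor cKO cluster 4) and Rps19 from 10693 (thymus cKO cluster 7) to 37849.7 (spleen cKO cluster 10). In log2 units other members varied more, with 2.57 for Rps27rt and 2.26 for Rpl35, against 1.84, 1.67 and 1.82 for Rps27, Rpl41 and Rps19. Rps27l ran from 142 (spleen cKO cluster 10) to 3641 (thymus flfl cluster 1), but the lower value rests on 2 UMIs, so its log2 range is uncertain. Rpl19, at 9696 (spleen flfl cluster 9) to 12904 (thymus cKO cluster 7), had the smallest range in log2 units, 0.41, though not in UMIs per 1000000, and was named for that after the values were seen. By state, Rps27l per 1000 Rps27 was 13.8 in thymic mature or naive-like cluster 6 (cKO), 22.7 and 20.2 in cluster 0, and 216 and 229.8 in cycling-like cluster 1. Immature-like cluster 9 had 124, memory-like cluster 8 of cKO 14.9, and spleen cluster 11 of cKO 91.2. In thymus, cycling-like and immature-like cells thus had the most Rps27l for their Rps27, and mature-like clusters 0, 6 and 10 and memory-like cluster 8 the least, while mature-like cluster 5 had 83.2 and 69.7. Rpl22l1 per 1000 Rpl22 stayed split by library: 697 and 438 in cluster 0, 751 and 464 in cluster 1.

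**Figure D3:**
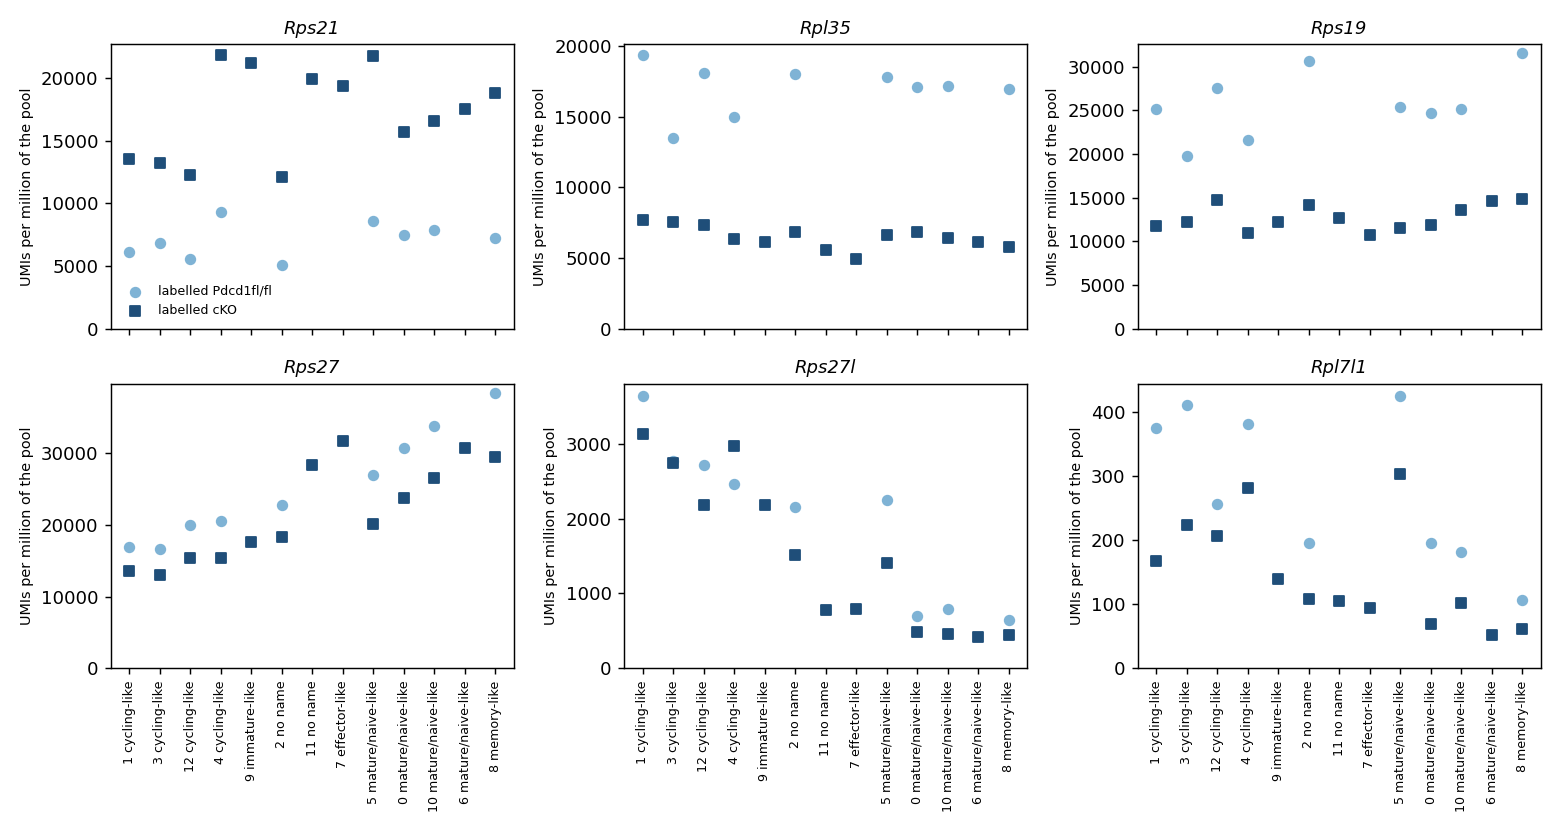
UMIs per 1000000 of the ribosomal protein pool for 6 members in each thymic cluster with at least 20 cells, by library label. Rps21 is higher and Rpl35, Rps19 and Rpl7l1 lower in cKO in every shared cluster, while Rps27 rises and Rps27l falls from cycling-like clusters to mature-like clusters 0 and 10 (Rps27 from 16875 in cluster 1 to 33807 in cluster 10 of flfl).

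Cycling cells were compared with the other T lineage cells of the same library, which leaves maturation as a difference between the 2 classes. At resolution 1 clusters were named cycling-like in thymus alone, with 621 and 655 cells against 446 and 1980 others. Cycling markers were also found in spleen cluster 11 (9 of them) and in tumor clusters 0 (3), 1 (3), 5 (6) and 9 (4), which the naming rule left unnamed or called effector-like, and at resolution 1.5 spleen cluster 12 and tumor cluster 1 were named cycling-like. In flfl cluster 1 held 523 of the 621, whereas in cKO clusters 3 and 4 held 340 and 237 of the 655, so the classes are not alike. Cycling-like clusters 1, 3, 4 and 12 had 494, 536, 259 and 914 CPM of Dntt and 94.3, 80.4, 76.3 and 45.1 of Cd8b1, against 64.7 and 743 in mature-like cluster 0, and the part of immaturity in what follows was not tested. Ribosomal protein UMIs made up 26.1 against 27.1 percent in flfl and 30.2 against 35.9 in cKO. The member median of the log2 fold was -0.00 in flfl (42 of 84 above 0; all genes -0.19) and -0.21 in cKO (21 of 86 above 0; all genes -0.05). In flfl 2 members were higher past 1.5-fold (20.3% of all genes) and 2 lower (33.2%), in cKO 2 (23.1%) and 5 (26.2%). The median changed sign with the clusters used, to 0.08 and 0.03 in flfl at resolutions 0.5 and 1.5 and to 0.01 in cKO at 0.5, and became -0.16 in flfl and -0.32 in cKO without mitochondria-high clusters and on the scale without ribosomal protein RNA, respectively.

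Single members differed more than the list. Rps27 in cycling-like cells stood at 4437 against 8143 CPM in the library labelled flfl and 4025 against 8770.1 in the one labelled cKO, log2 folds of -0.88 (-0.91 to -0.85) and -1.12 (-1.14 to -1.11). Its copy Rps27rt had 1167 against 2169 CPM in the library labelled flfl and 1154 against 2488 in the one labelled cKO, log2 folds of -0.89 (-0.95 to -0.83) and -1.11 (-1.14 to -1.07). Rps24 was at 3236 against 4474 CPM in the library labelled flfl and 5016 against 8792 in the one labelled cKO, log2 folds of -0.47 (-0.51 to -0.43) and -0.81 (-0.83 to -0.79). These 3 were lower in cycling-like cells of both libraries, as were Rps15a (-0.48 and -0.64) and Rpl37a (-0.40 and -0.62). In the other direction, Rps27l was at 908 against 352 CPM in the library labelled flfl and 827 against 292 in the one labelled cKO, log2 folds of 1.37 (1.25 to 1.49) and 1.501 (1.44 to 1.56). Rpl7l1 had 97.4 against 55.4 CPM in the library labelled flfl and 67.4 against 31.1 in the one labelled cKO, log2 folds of 0.81 (0.50 to 1.14) and 1.11 (0.92 to 1.31). Both were higher in cycling-like cells, and smaller differences of the same sign were seen for Rps19bp1 (0.50 and 0.39), Rpl36al (0.53 and 0.34) and Rpl7a (0.44 and 0.26). Over 83 members the folds of the pool share in the 2 libraries had a Pearson correlation of 0.95 and a Spearman correlation of 0.90, with 42 above 0 in both, 28 below 0 in both and 13 of opposite sign. Genes are not independent replicates, and the clusters were made from both libraries together.

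In spleen and tumor, where no cluster was named cycling-like at resolution 1, cells were called cycling by at least 3 UMIs of the 12 cycling markers after thinning to 1000 UMIs. This gave 31 cells in the cKO spleen and 47 and 105 in the tumor libraries; the flfl spleen had 8, too few to use. The share of ribosomal protein UMIs was 22.9 against 29.2 percent in the cKO spleen, 39.0 against 41.8 in flfl tumor and 34.4 against 36.7 in cKO tumor, lower in cycling cells each time. The log2 fold of Rps27 was -1.19, -0.40 and -0.12, and that of Rps27l 1.92, 0.53 and 0.13. Both kept their thymic directions, with little difference in the cKO tumor. In tumor 43 of the 47 lay in unnamed cluster 0 and 58 and 28 of the 105 in effector-like clusters 1 and 5. Of the 31 spleen cells, 16 lay in cluster 1 and 11 in cluster 11, which was led by granulocyte progenitor genes, and the part of that lineage in these values was not tested.

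Fau and Rack1 are ribosomal proteins whose symbols follow other rules. Fau, a fusion of a ubiquitin-like protein with Rps30, had 2066 and 3775 CPM in thymus, 3338 and 2758 in spleen and 4357 and 3916 in tumor, log2 ratios of 0.87, -0.28 and -0.15. Rack1, on the head of the small subunit, had 1796 and 2368 CPM in thymus, 2587 and 2057 in spleen and 3126 and 2399.9 in tumor, log2 ratios of 0.40, -0.33 and -0.38. Both were higher in the cKO thymus and lower in the cKO spleen and tumor, as most of the ribosomal protein genes were. The 40 ribosome biogenesis genes, which make and assemble the subunits in the nucleolus, had medians of -0.37 in thymus (1 higher and 7 lower past 1.5-fold), 0.32 in spleen (10 and 0) and -0.23 in tumor (0 and 8). Beside them stand all-gene medians of -0.02, 0.17 and 0.09, with 17.2 and 16.4, 22.0 and 7.82, and 19.0 and 10.8% of all genes higher and lower, and the 10 of 40 higher in spleen are close to the share of all genes. The 40 translation factors had medians of -0.18 (2 and 8), 0.23 (3 and 0) and -0.07 (0 and 2), and the 22 genes of mTOR signaling and Myc that control ribosomal protein synthesis -0.11 (3 and 3), 0.08 (5 and 1, over 21) and -0.03 (4 and 3, over 21). On the scale without ribosomal protein RNA the control list became 0.07 in thymus and -0.06 in spleen, so its direction there depends on scaling; translation factors stood at -0.00 in thymus and biogenesis genes kept their sign. In cycling over other thymic cells biogenesis genes had medians of 0.43 (17 of 40 higher) and 0.77 (26 of 40), translation factors 0.33 (13 higher, 3 lower) and 0.40 (15 and 2), and control genes -0.23 (2 and 8) and -0.11 (4 and 6), where all genes had -0.19 (20.3 and 33.2%) and -0.05 (23.1 and 26.2%).

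The members lie on 19 chromosomes, with 14 on chromosome 7 and 4 on the X chromosome (Rpl10, Rpl36a, Rpl39 and Rps4x). Over 84 members with at least 100 UMIs, the median transcript was 1074 bases long with 50.6% GC, against 3319 bases and 49.6% over 11805 other genes. GC content had a weak relation to the log2 ratio of cKO to flfl, with a Pearson correlation over 83 members of -0.16 in thymus, 0.09 in spleen and 0.18 in tumor. In thymus the 28 members highest in GC had a median of 0.06, against 0.45 and 0.44 in the 28 lowest and the 27 between. Other nuclear genes over the same GC ranges had thymic medians of -0.13 in the highest, against -0.04 in the lowest and -0.12 between, so they too were lowest at high GC. Members of a tissue share their 2 libraries and depth, so these values describe the genes only.

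Start sites were read from RefSeq promoters of build GRCm38.p6, where 81 promoters of 69 members matched. A run of at least 8 C or T on the coding strand within 15 bases of the start was present in 37.0% of them and in 11.9% of the 32770 other promoters, and a run of at least 6 in 51.9% and 29.1%. Within 10, 20 and 30 bases a run of 8 was in 28.4, 40.7 and 48.1% of member promoters and 7.38, 16.0 and 22.9% of the others; a run of 6 was in 44.4, 59.3 and 70.4% and 20.1, 37.4 and 49.5%. Members with and without a run of 8 had median log2 ratios of 0.35 and 0.41 in thymus, -0.36 and -0.32 in spleen and -0.18 and -0.18 in tumor, so at these starts the run did not set apart members by their ratio. The share depends on the annotation: canonical GENCODE starts, within 15 bases, gave a run of 8 in 19.5% of the 87 members and 11.6% of 10990 other genes. The 30 bases around 4 starts are shown because these genes stood at the ends of the thymic and cycling comparisons, with the run in capitals. Rpl35 lies at chr2:39005117-39005146 (minus strand), Rps21 at chr2:180257364-180257393 (plus strand), Rps27 at chr3:90213634-90213663 (minus strand) and Rps27l at chr9:66946071-66946100 (plus strand). At these starts Rpl35, Rps27 and Rps27l have a run and Rps21 has none, but a further RefSeq promoter of Rps27l has none, and at the canonical GENCODE starts Rps27l alone of the 4 has one; a match is a description of letters, not of use.
Rpl35: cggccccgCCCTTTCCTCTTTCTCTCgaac
Rps21: taccgaggacccgccctcctgcccaatagt
Rps27: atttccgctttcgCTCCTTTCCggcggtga
Rps27l: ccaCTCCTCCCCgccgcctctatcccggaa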

How the data were processed

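UMI counts per cell barcode and gene that the authors deposited were used. According to the submitters, reads were processed with the PIPseq pipeline against GRCm39 and analysed in Seurat 4.3.0; single UMIs count molecules at the 3′ end, and ambient RNA was not removed here. Cells were filtered as stated, clusters were made per tissue from 2000 variable genes, 20 principal components and 20 neighbors by Leiden clustering at resolution 1, and a cluster was named for the list with most markers in at least 10% of cells and at least 2-fold over the rest, where these were at least 3. The name was dropped where another list had more markers than this one among the cluster's 10 leading genes, where double-positive markers lacked Cd4, or where the cluster was shallow and none of its markers led. Clusters needed 20 cells in a library to be reported. Ratios are of CPM summed over cells, with exact conditional binomial 95% intervals, a count of 0 on 1 side being set to 3; shares have Clopper-Pearson and CPM exact Poisson intervals. Genes needed 20 UMIs over both sides. The level of 1 gene is compared between libraries only, since capture differs between genes.

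The members and lists were chosen with earlier results of these data known. Genes were named by rule: every paralog and partner, the 5 members of largest and of smallest ratio in each tissue with at least 100 UMIs, the 5 of largest and smallest fold in cycling cells, the 3 of largest range of pool share, the stalk proteins, Rps6 and Rpsa. The lists were ribosome biogenesis, translation factors and genes controlling ribosomal protein synthesis. The thresholds for cluster names, the GC comparison, the within-cluster comparison and a limit of 5.5% mitochondrial UMIs for leaving out clusters were chosen after the values were seen. All promoter windows given and runs of 6 and 8 were looked at, and canonical GENCODE starts as given. Alternatives tried were a stricter cell filter (1000 genes, 2000 UMIs, 10% mitochondrial), every barcode, all filtered cells, cells with Cd8a or Cd8b1 UMIs, cycling clusters left out, thinning to 1000 UMIs, 2 other scalings, other UMI minima, core subunits only, 2-fold, resolutions 0.5 and 1.5, clusters made with ribosomal protein genes, and cycling cells called by UMI count. A self-test on simulated counts was run. Some single genes are not reported here. Rps4l was not analysed here, and protein sequences were not analysed here. Software was Python 3.11.15, numpy 2.4.6, scipy 1.17.1, pandas 2.3.3, scikit-learn 1.9.0, leidenalg 0.10.2 and matplotlib 3.10.9.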

Additional observations from a re-analysis of the deposited data

Results flagged for a closer look

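The cKO and flfl libraries differed in the share of ribosomal protein UMIs by 7.23 percentage points in thymus, -6.80 in spleen and -5.03 in tumor, and in the median log2 ratio of the members by 0.39, -0.33 and -0.19. With the stricter cell filter the spleen shares came closer, at 30.3 and 26.9 percent, and with all filtered cells the tumor share was the higher in cKO, at 29.8 and 30.7 percent, with a tumor median of 0.03. Rpl30 had log2 ratios of 1.12 in thymus and -0.63 in spleen, and Rpl7l1 of -0.90 and 0.77; under the stricter filter both fell below 1.5-fold in spleen, to -0.40 and 0.27. With 1 library per group none of these differences was tested.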

How the results depend on the processing

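Each value was recomputed under the other settings and compared with its own counting interval or, for medians, the order-statistic interval. Among shares, medians, counts and paralog ratios, 163 recomputed values left it, 5 took the opposite sign and 261 stayed; among values of single members, 686 left it and 336 stayed. Of the ratios of cKO to flfl, 67 changed sign, 0 of them past 1.5-fold, and most of these came with cells of other lineages kept in tumor or with another scaling. Members higher or lower are counted past 1.5-fold unless 2-fold is stated, with the share of all genes past the same limit under the same setting. The cause of these shifts was not tested. No paired analysis was possible because each group had 1 library per tissue and no label pairs the animals.

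With the stricter cell filter, the share of ribosomal protein UMIs was 26.6% in thymus flfl, 35.3% in thymus cKO, 30.3% in spleen flfl and 26.9% in spleen cKO. The median log2 ratio was -0.21 in spleen. Members higher were 0 in spleen (23.8% of all genes). Members lower were 1 in spleen (14.1% of all genes). Rpl39l per 1000 Rpl39 was 0 in spleen flfl and 0.392 in spleen cKO. Rpl22l1 per 1000 Rpl22 was 885 in spleen flfl. Rpl10l per 1000 Rpl10 was 0 in spleen flfl. Rpl36al per 1000 Rpl36a was 372 in spleen flfl and 367 in spleen cKO. Rpl7l1 per 1000 Rpl7 was 18.4 in spleen flfl and 29.0 in spleen cKO. Rps27l per 1000 Rps27 was 71.7 in thymus cKO, 15.6 in spleen flfl and 12.98 in spleen cKO. Rps27rt per 1000 Rps27 was 324 in spleen flfl and 413 in spleen cKO. In cycling cells the ribosomal protein share was 26.2% in thymus flfl and 32.5% in thymus cKO. In other T lineage cells the ribosomal protein share was 27.7% in thymus flfl and 37.0% in thymus cKO. In effector-like cells the ribosomal protein share was 33.8% in thymus cKO. In immature-like cells the ribosomal protein share was 16.7% in thymus cKO. In mature or naive-like cells the ribosomal protein share was 39.3% in thymus cKO and 26.8% in thymus flfl. In memory-like cells the ribosomal protein share was 42.1% in thymus cKO.

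In cells with Cd8a or Cd8b1 UMIs, the share of ribosomal protein UMIs was 26.9% in thymus flfl, 35.4% in thymus cKO, 35.7% in spleen flfl and 29.2% in spleen cKO. The ratio of Rpl22l1 to 1000 Rpl22 was 701 in thymus flfl. The ratio of Rpl3l to 1000 Rpl3 was 0.524 in thymus cKO. The ratio of Rpl36al to 1000 Rpl36a was 468 in thymus flfl and 342 in thymus cKO. The ratio of Rps27l to 1000 Rps27 was 112 in thymus flfl and 58.6 in thymus cKO.

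Without the cycling-like clusters, the share of ribosomal protein UMIs was 27.1% in thymus flfl and 35.9% in thymus cKO. Rpl22l1 per 1000 Rpl22 was 766 in thymus flfl and 423 in thymus cKO. Rpl36al per 1000 Rpl36a was 352 in thymus flfl and 301 in thymus cKO. Rpl7l1 per 1000 Rpl7 was 30.2 in thymus flfl and 10.7 in thymus cKO. Rps27l per 1000 Rps27 was 43.2 in thymus flfl and 33.3 in thymus cKO.

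With cells thinned to 1000 UMIs, the share of ribosomal protein UMIs was 26.3% in thymus flfl, 32.7% in thymus cKO, 36.2% in spleen flfl, 29.2% in spleen cKO, 42.6% in tumor flfl and 36.5% in tumor cKO. Members lower were 6 in thymus (20.4% of all genes), 7 in spleen (7.50% of all genes) and 3 in tumor (8.50% of all genes). Members higher were 1 in spleen (22.8% of all genes). The ratio of Rpl39l to 1000 Rpl39 was 0 in thymus flfl. The ratio of Rpl22l1 to 1000 Rpl22 was 413 in thymus cKO and 613 in tumor cKO. The ratio of Rpl3l to 1000 Rpl3 was 1.42 in thymus flfl and 1.45 in thymus cKO. The ratio of Rpl10l to 1000 Rpl10 was 0 in tumor flfl. The ratio of Rpl36al to 1000 Rpl36a was 462 in thymus flfl and 336 in thymus cKO. The ratio of Rpl7l1 to 1000 Rpl7 was 13.1 in thymus cKO and 17.3 in tumor cKO. The ratio of Rps27l to 1000 Rps27 was 112 in thymus flfl, 52.7 in thymus cKO and 43.3 in tumor flfl. The ratio of Rps27rt to 1000 Rps27 was 597 in tumor flfl and 666 in tumor cKO.

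Without mitochondria-high clusters, a choice made after the values were seen, the share of ribosomal protein UMIs was 27.5% in thymus flfl, 36.1% in thymus cKO, 36.8% in spleen flfl and 31.2% in spleen cKO. The median log2 ratio was -0.27 in spleen. Members higher were 1 in spleen (20.04% of all genes). Rps27l per 1000 Rps27 was 71.4 in thymus cKO. In cycling cells the ribosomal protein share was 26.4% in thymus flfl and 33.1% in thymus cKO. In other T lineage cells the ribosomal protein share was 30.7% in thymus flfl and 38.0% in thymus cKO. The median log2 fold of cycling cells was -0.16 in thymus flfl. In mature or naive-like cells the ribosomal protein share was 41.1% in thymus cKO and 33.2% in thymus flfl.

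With every barcode, the share of ribosomal protein UMIs was 33.4% in thymus cKO, 36.6% in spleen flfl, 29.8% in tumor flfl and 30.7% in tumor cKO. Members higher were 1 in spleen (20.9% of all genes) and 1 in tumor (12.8% of all genes). Members lower were 9 in spleen (10.005% of all genes). The median log2 ratio was 0.0278 in tumor (opposite sign). The ratio of Rpl22l1 to 1000 Rpl22 was 499.7 in tumor flfl and 613 in tumor cKO. The ratio of Rpl3l to 1000 Rpl3 was 0.302 in tumor cKO. The ratio of Rpl36al to 1000 Rpl36a was 969 in tumor flfl and 884 in tumor cKO. The ratio of Rpl7l1 to 1000 Rpl7 was 21.6 in tumor flfl. The ratio of Rps27l to 1000 Rps27 was 154 in tumor flfl and 119 in tumor cKO.

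With all filtered cells, the share of ribosomal protein UMIs was 29.8% in tumor flfl and 30.7% in tumor cKO. The median log2 ratio was 0.0257 in tumor (opposite sign). Members higher were 1 in tumor (12.8% of all genes). Rpl22l1 per 1000 Rpl22 was 499.8 in tumor flfl and 613 in tumor cKO. Rpl3l per 1000 Rpl3 was 0.302 in tumor cKO. Rpl36al per 1000 Rpl36a was 968 in tumor flfl and 884 in tumor cKO. Rpl7l1 per 1000 Rpl7 was 21.6 in tumor flfl. Rps27l per 1000 Rps27 was 153 in tumor flfl and 119 in tumor cKO.

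Scaled to UMIs other than ribosomal protein, mitochondrial and Malat1, the median log2 ratio was 0.57 in thymus, -0.47 in spleen and -0.31 in tumor. Members higher were 41 in thymus (24.2% of all genes) and 1 in spleen (16.7% of all genes). Members lower were 17 in spleen (11.2% of all genes) and 3 in tumor (13.7% of all genes). The median log2 fold of cycling cells was -0.32 in thymus cKO.

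At 2-fold, members higher were 8 in thymus (8.75% of all genes) and 0 in spleen (9.18% of all genes). Members lower were 1 in thymus (5.33% of all genes) and 0 in spleen (2.83% of all genes).

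Scaled by median of ratios, the median log2 ratio was -0.50 in spleen and -0.27 in tumor. Members higher were 1 in spleen (15.3% of all genes). Members lower were 22 in spleen (12.6% of all genes) and 1 in tumor (12.97% of all genes).

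Among members with at least 100 UMIs, members higher were 1 in spleen (17.7% of all genes).

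Among core subunits, members higher were 0 in spleen (22.0% of all genes).

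Among members with at least 1 UMI, members higher were 2 in tumor (23.4% of all genes). Members lower were 1 in tumor (24.3% of all genes).

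At resolution 0.5, in cycling cells the ribosomal protein share was 26.6% in thymus flfl and 33.3% in thymus cKO. In other T lineage cells the ribosomal protein share was 25.9% in thymus flfl and 33.7% in thymus cKO. The median log2 fold of cycling cells was 0.0831 in thymus flfl (opposite sign) and 0.0118 in thymus cKO (opposite sign). In effector-like cells the ribosomal protein share was 23.9% in spleen cKO and 33.6% in thymus cKO. In mature or naive-like cells the ribosomal protein share was 41.0% in thymus cKO and 32.9% in thymus flfl.

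At resolution 1.5, in cycling cells the ribosomal protein share was 26.2% in thymus flfl and 29.5% in thymus cKO. In other T lineage cells the ribosomal protein share was 26.7% in thymus flfl and 35.7% in thymus cKO. The median log2 fold of cycling cells was 0.0307 in thymus flfl (opposite sign). In effector-like cells the ribosomal protein share was 24.7% in spleen cKO. In immature-like cells the ribosomal protein share was 28.9% in thymus cKO.

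With clusters made from all genes, in cycling cells the ribosomal protein share was 25.8% in thymus flfl and 29.97% in thymus cKO. In other T lineage cells the ribosomal protein share was 27.7% in thymus flfl and 35.8% in thymus cKO. In immature-like cells the ribosomal protein share was 31.3% in thymus cKO. In mature or naive-like cells the ribosomal protein share was 38.8% in thymus cKO, 27.95% in thymus flfl and 48.9% in tumor flfl. In memory-like cells the ribosomal protein share was 41.2% in thymus cKO and 34.1% in thymus flfl. In effector-like cells the ribosomal protein share was 38.4% in tumor flfl.

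With cycling cells called by UMI count, in cycling cells the ribosomal protein share was 25.8% in thymus flfl. In other T lineage cells the ribosomal protein share was 27.6% in thymus flfl and 35.2% in thymus cKO.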
